A study of Mus musculus with 39 samples.

Results

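The genes described here are the macrophage scavenger receptors Cd163, Msr1, Marco, Mrc1 and Cd36. They were taken by name, 5 of the 22180 genes that the arrays measured under a single symbol, and each had 1 probe set (17462843, 17508850, 17226327, 17367102 and 17445715, in that order). The choice of genes used no measured value of this table, although it was made with earlier results of these data known. All groups were donor cells carrying the CD45.1 form of the leukocyte antigen CD45. These were sorted from the bone marrow of transplanted mice at the end stage, and each array is 1 recipient mouse. The normal controls were 3 mice of passage 1. The other 36 arrays were leukaemias driven by AE9a, a shortened form of the AML1-ETO fusion protein of t(8;21) acute myeloid leukaemia. They fell into 3 arms, called AE9a, AE9a+miR-126 (the fusion with the microRNA miR-126 added) and miR-126KO+AE9a (the fusion in cells lacking miR-126). Each arm was measured at passages 1 to 4 of serial bone marrow transplantation, with 3 mice per arm and passage, or 12 arrays per arm. No array held normal cells with miR-126 added or removed, so every effect of miR-126 below is an effect in AE9a cells. The labels do not say whether mice of a group received cells of 1 donor culture. Nor do they say which mice gave the cells of a later passage. Mice of successive passages may share a line of cells, yet every array was treated as independent. This holds also for averages over passages and for comparisons between passages. The p-values therefore measure only the spread between these mice, and the 12 arrays of an arm need not be 12 independent leukaemias.

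Scavenger receptors are surface proteins with which macrophages take up altered lipoproteins, microbes, dead cells and free haemoglobin. Msr1 and Marco are class A receptors with collagen-like stalks, Cd36 is a class B receptor that takes up oxidised lipoprotein and long-chain fatty acids, Cd163 takes up haemoglobin bound to haptoglobin, and Mrc1 is the mannose receptor. In bone marrow such receptors mark resident macrophages and some monocytes, while most granulocyte precursors carry little of them, and Cd36 is also made by erythroid precursors and platelets. Values are the authors' log2 expression values, in which a difference of 1 is a doubling.

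The added and deleted microRNA and the upstream regions of Cd163, which was higher in AE9a+miR-126 than in AE9a, and of Cd36, which was lower, are shown first. The mature miR-126a-3p is given with its seed, bases 2 to 8, in capitals. The stretches of 250 bases before the transcription start are those of RefSeq on build GRCm38.p6, which holds Cd163 at chr6:124304401-124304650 on the plus strand and Cd36 at chr5:17835897-17836146 on the minus strand.
mmu-miR-126a-3p: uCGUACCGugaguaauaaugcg
Cd163: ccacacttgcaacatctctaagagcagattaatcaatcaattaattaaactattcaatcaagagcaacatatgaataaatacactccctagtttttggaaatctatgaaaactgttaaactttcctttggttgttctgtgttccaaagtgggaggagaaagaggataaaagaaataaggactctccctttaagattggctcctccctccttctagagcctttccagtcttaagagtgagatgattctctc
Cd36: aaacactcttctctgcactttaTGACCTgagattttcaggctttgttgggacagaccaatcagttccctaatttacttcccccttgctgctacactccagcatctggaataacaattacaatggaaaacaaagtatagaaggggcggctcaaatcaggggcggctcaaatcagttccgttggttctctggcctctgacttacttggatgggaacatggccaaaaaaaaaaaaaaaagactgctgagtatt
Capitals in the upstream regions mark matches to any of 4 short motifs searched on both strands: the runt core TGTGGT, which the runt domain of AE9a recognises, the purine box GAGGAA of PU.1-like factors, the AP-1 site TGANTCA and the nuclear receptor half-site AGGTCA. Cd163 held 0 matches. Cd36 held 1, a half-site on the minus strand of the window that starts 228 bases before the transcription start. Among 32851 promoters of the same length, the runt core was found in 14.0%, the purine box in 23.3%, the AP-1 site in 6.75% and the half-site in 14.0%. Of the other receptors, Marco had 1 purine box and Mrc1 had 3, and the other 3 motifs had no match in either. The table gave regions for 4 of the 5 receptors, all but Msr1. A match or its absence in these windows is a description of the letters and says nothing of binding.

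Across the series the probe set that carries the symbols Mir126a and Egfl7 together read 5.90 to 11.6 in AE9a+miR-126 and 2.76 to 3.04 in AE9a. It read 2.77 to 3.15 in miR-126KO+AE9a, so the knockout could not be checked against AE9a with it. Arrays differed in the spread of their values. Their SD over probe sets was 1.43 to 2.03 in AE9a+miR-126 and 1.78 to 2.08 in the other arrays. Of 8 arrays with an SD under 1.8, 7 were among the 9 arrays of AE9a+miR-126 at passages 2 to 4, and the eighth was replicate 3 of miR-126KO+AE9a at passage 2. Dropping these 8 leaves AE9a+miR-126 with replicate 3 alone at passages 2 and 4 and with no mouse at passage 3. Values of that arm without them therefore rest on single mice at these passages, taken to vary like the other groups, and its averages then cover passages 1, 2 and 4 only. Ptprc is the gene of the sorted antigen CD45. In AE9a+miR-126 it read 10.46 to 11.18 at passage 2, 9.31 to 10.58 at passage 3 and 10.04 to 10.21 at passage 4. It read 10.76 to 11.52 in AE9a, so all AE9a+miR-126 arrays of passages 3 and 4 lay below every AE9a array. The part of these differences in the results below was not tested. The median difference over all genes between AE9a+miR-126 and AE9a was 0.117 at passage 3 and 0.128 at passage 4. It was 0.127 for passage 4 against passage 1 within AE9a+miR-126 and 0.102 for the change of the miR-126 effect. These medians over all genes do not describe bright genes. In a list of 6 general blood cell genes, Ptprc among them, the median difference from AE9a was -0.91 at passage 3 and -0.78 at passage 4. At each of these passages 5 of the 6 were called lower and 0 higher, where 52.2% and 24.7% of all genes were called. How far the narrower spread enters the changes below was not tested.

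**Figure D1:**
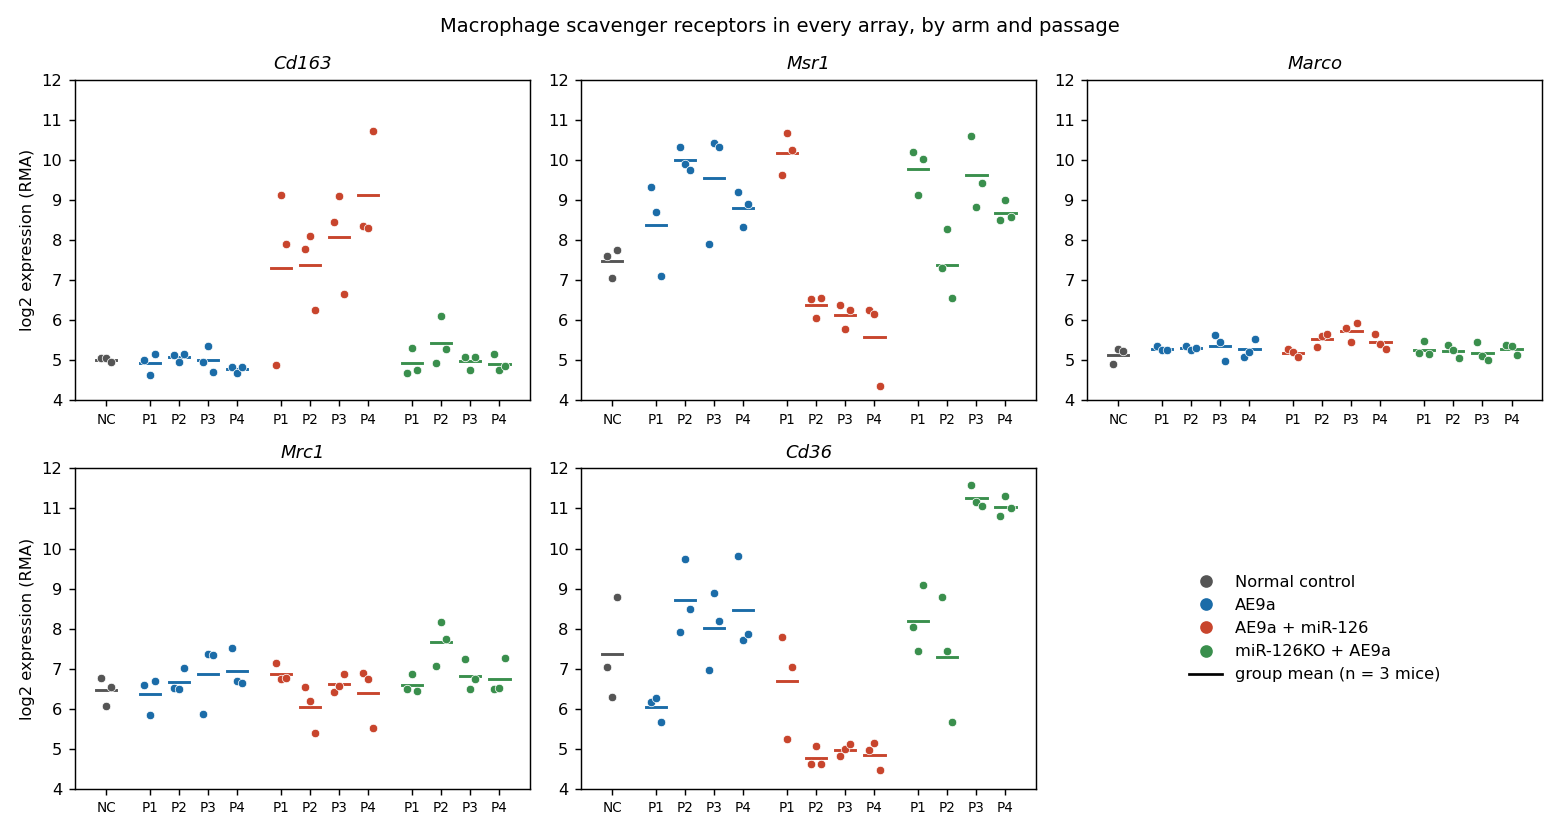
The log2 expression of each receptor is plotted for all 39 arrays by group, with NC for the normal controls, P1 to P4 for the passages, points for mice and bars for group means. Cd163 stands above 6 in 11 of 12 arrays of AE9a+miR-126 and in 1 other array, Msr1 and Cd36 are lowest at P2 to P4 of that arm, Cd36 is highest at P3 and P4 of miR-126KO+AE9a, and Marco is nearly level.

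Cd163, the haemoglobin scavenger, was mostly near 5 outside AE9a+miR-126 and was high there in 11 of 12 arrays. The normal controls read 5.04, 5.06 and 4.94. AE9a read 4.99, 4.63 and 5.15 at passage 1, 5.13, 4.96 and 5.15 at passage 2, 4.94, 5.35 and 4.71 at passage 3, and 4.83, 4.67 and 4.83 at passage 4. Those 12 arrays lie around the normal controls. AE9a+miR-126 read 4.88, 9.11 and 7.89 at passage 1 and 7.77, 8.11 and 6.25 at passage 2. It then read 8.44, 9.09 and 6.66 at passage 3 and 8.36, 8.29 and 10.73 at passage 4. Of its 12 arrays 11 lay above the highest array of AE9a, and the exception, replicate 1 of passage 1, lay within the range of AE9a. miR-126KO+AE9a read 4.68 to 6.11, and 11 of its 12 arrays lay within the range of AE9a. A value near 5 is below the median of all genes over all arrays, 5.54, and detection calls were not used here, so it is not known whether such arrays hold any Cd163 RNA.

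At passage 1, which can be set against normal marrow, Cd163 was 2.28 ± 0.67 higher in AE9a+miR-126 than in the normal controls (± is the standard error of the difference, 3 mice against 3, adjusted p = 0.0253). Their ranges overlapped, because of the 1 low mouse. This call was lost when the compared groups were fitted alone (adjusted p = 0.129) and when any 1 of 5 arrays was left out: any normal control (2.24 to 2.30), or replicate 2 (1.37, adjusted p = 0.272) or 3 (1.98, adjusted p = 0.125) of AE9a+miR-126. In the same comparison 2 of the 5 receptors were called, both higher, where 9.73% of all genes were called. Against AE9a at the same passage the difference was 2.37 ± 0.67 and did not pass (adjusted p = 0.363). In that comparison 0 of the 5 receptors and 0.0316% of all genes were called by limma, with 2 receptors and 1165 genes at an unadjusted p under 0.05. Without the low mouse the Cd163 difference was 3.58 (adjusted p = 0.00153).

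At the later passages Cd163 was higher in AE9a+miR-126 than in AE9a by 2.30 ± 0.67 at passage 2 (adjusted p = 0.0320), 3.06 ± 0.67 at passage 3 (adjusted p = 0.000521) and 4.35 ± 0.67 at passage 4 (adjusted p = 2.38e-05). The groups did not overlap at any of these passages. Each of these comparisons called 3 of the 5 receptors (Cd163 higher, Msr1 and Cd36 lower), while the shares of all genes called were 8.85%, 52.2% and 24.7%. The passage 2 call was lost without any 1 of 5 arrays, replicates 1 to 3 of AE9a (2.24 to 2.33) or replicates 1 (2.10) and 2 (1.93) of AE9a+miR-126. When the low-spread arrays were dropped, the 1 mouse left gave 1.17 (adjusted p = 0.573). Averaged over 4 passages the difference was 3.02 ± 0.33, an 8.11-fold difference (adjusted p = 4.71e-08), and it ran from 2.79 to 3.32 as each array was left out. The spread of the arrays moved with this arm: the difference was 3.47 when each array's spread entered the model and, over passages 1, 2 and 4, 3.16 when the low-spread arrays were dropped, with 1 mouse of this arm left at each of the last 2 of these. Over the average, 3 of 5 receptors were called, but so were 55.1% of all genes, so the count of receptors says little and their sizes say more.

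From passage 1 to 4, Cd163 rose by 1.83 ± 0.67 within AE9a+miR-126 (adjusted p = 0.0445), with overlapping mice. That call was lost when the compared groups were fitted alone (adjusted p = 0.331), and without replicate 1 (0.62) or 3 (2.13) of passage 1 or replicate 3 of passage 4 (1.03). It was also lost after cyclic loess (1.72, adjusted p = 0.0631). Within AE9a+miR-126, 3 of 5 receptors and 24.3% of all genes were called between these passages. The growth of the difference from AE9a, from 2.37 to 4.35, did not pass (1.98 ± 0.94, adjusted p = 0.148), though it passed without replicate 2 of passage 1 of AE9a+miR-126 (2.89, adjusted p = 0.0407). When the low-spread arrays were dropped the value was 3.58, from the 1 mouse left at passage 4, which had the highest Cd163 of its group. Between miR-126KO+AE9a and AE9a, Cd163 differed by 0.11 ± 0.33 on average (adjusted p = 0.928, 95% interval -0.57 to 0.79).

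Markers of monocytes and macrophages, which usually carry Cd163, were mostly lower in AE9a+miR-126 over the average, but not at passage 1. Of 19 measured monocyte and macrophage markers, 1 was higher and 14 were lower in AE9a+miR-126 than in AE9a on average, with a median difference of -0.89 against 0.08 over all genes, in a comparison that called 55.1% of all genes. They were led by Itgam (-2.57 ± 0.23), an integrin chain of myeloid cells, Fcgr1 (-2.40 ± 0.22), the high-affinity IgG receptor, and Lyz2 (-1.56 ± 0.15), lysozyme. Of 12 neutrophil markers, 0 were higher and 11 lower in the same comparison, with a median of -2.01. The list of 6 general blood cell genes was lower there too, with 0 higher, 5 lower and a median of -0.49. Its part in the marker differences was not tested. The mean level of the monocyte and macrophage markers per array was 6.75 to 7.63 in AE9a+miR-126, 7.37 to 8.67 in AE9a, 7.27 to 8.58 in miR-126KO+AE9a and 7.60 to 7.83 in the normal controls. At passage 1 it was 7.48, 7.63 and 7.56 in AE9a+miR-126 and 7.43, 7.42 and 7.37 in AE9a, with a median difference over the markers of 0.07. The passage 1 mice with high Cd163, replicates 2 and 3, had marker means above all 3 of AE9a, and so had replicate 1, the mouse with low Cd163. Of the markers of tissue-resident macrophages, Timd4 lay between 4.31 and 5.10 and Vsig4 between 3.04 and 3.89 over all arrays. Other macrophage markers of the list varied more. C1qa ran from 5.94 to 7.92, and C1qb and C1qc rose from passage 1 to 4 in AE9a, as given in the closing section. In the arrays of bulk sorted cells, fewer cells of a type and less RNA per cell cannot be told apart. Among the genes for haemoglobin and iron handling, 0 of 16 were higher and 14 were lower, with a median of -0.84, beside the same 55.1%. Hmox1, the haem-degrading oxygenase, was lower by 2.28 ± 0.27 (adjusted p = 1.92e-07), and Slc11a1, an iron transporter of phagosomes, by 2.57 ± 0.33. Of 17 measured genes of alternative macrophage activation and its regulators, 0 were higher and 11 lower, with a median of -1.03. Counted in both directions together, that share is not far from the 55.1% of all genes. By direction, 6815 of all 22180 genes were higher and 5396 lower. Examples of the 11 were Il13ra1 (-1.43 ± 0.15), a chain of the IL-13 receptor, Chil3 (-1.85 ± 0.20), a secreted chitinase-like protein, and Maf (-1.29 ± 0.16), a macrophage transcription factor.

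**Figure D2:**
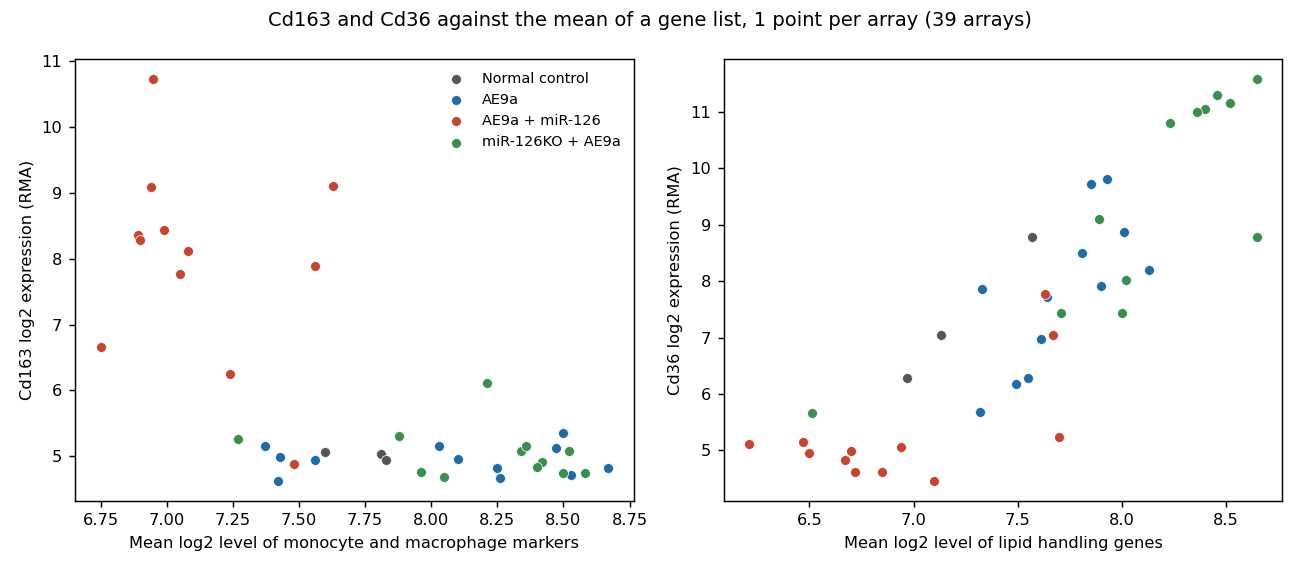
Each point is 1 of 39 arrays, coloured by arm. On the left Cd163 is plotted against the mean of 19 monocyte and macrophage markers, and the AE9a+miR-126 arrays, which hold its high values, have a mean of 6.75 to 7.63; on the right Cd36 is plotted against the mean of 14 lipid handling genes, and the highest Cd36 values, 10.80 to 11.59, are those of miR-126KO+AE9a at passages 3 and 4. All axes are log2.

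Msr1, the class A scavenger receptor for modified lipoprotein, was highest at passage 1 in AE9a+miR-126 and then fell there. The normal controls read 7.59, 7.06 and 7.76. At passage 1 AE9a read 9.33, 8.70 and 7.10, AE9a+miR-126 read 9.61, 10.66 and 10.24, and miR-126KO+AE9a read 10.19, 9.12 and 10.02. All arrays of both miR-126 arms lay above the normal controls, whereas AE9a overlapped them. Msr1 was higher than in the normal controls by 2.70 ± 0.57 in AE9a+miR-126 (adjusted p = 0.00211) and by 2.31 ± 0.57 in miR-126KO+AE9a (adjusted p = 0.00682). In AE9a the difference was 0.91 ± 0.57 (adjusted p = 0.350). Against the normal controls, 1 of 5 receptors and 10.8% of all genes were called in miR-126KO+AE9a. In AE9a 0 of 5 receptors and 8.87% of all genes were called by limma, with 0 receptors and 5220 genes at an unadjusted p under 0.05. These 3 comparisons share the same normal controls. At passage 1 the difference from AE9a was 1.79 ± 0.57 in AE9a+miR-126 (adjusted p = 0.536) and 1.40 ± 0.57 in miR-126KO+AE9a (adjusted p = 0.276), and neither passed.

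From passage 2 the order turned. AE9a read 10.32, 9.90 and 9.74 at passage 2, 7.89, 10.42 and 10.31 at passage 3, and 9.20, 8.33 and 8.89 at passage 4. AE9a+miR-126 read 6.53, 6.05 and 6.56, then 6.37, 5.77 and 6.25, and at last 6.24, 6.15 and 4.34. All 9 of these arrays lay below every AE9a array of any passage. The differences were -3.60 ± 0.57 (adjusted p = 0.000225), -3.41 ± 0.57 (adjusted p = 3.34e-05) and -3.23 ± 0.57 (adjusted p = 0.000166) at passages 2, 3 and 4. The average over 4 passages was -2.11 ± 0.29 (adjusted p = 1.24e-06), and without passage 1, where the difference had the other sign, it was -3.41. Within AE9a+miR-126 Msr1 fell by 4.59 ± 0.57 from passage 1 to 4, a 24.1-fold difference (adjusted p = 8.55e-07). The change of the miR-126 effect between these passages was -5.02 ± 0.81 (adjusted p = 0.000231), where 2 of 5 receptors and 10.5% of all genes were called.

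Between miR-126KO+AE9a and AE9a, Msr1 passed at passage 2 and at no other passage. It read 7.30, 8.28 and 6.55 there, 10.60, 8.83 and 9.42 at passage 3 and 8.49, 8.99 and 8.57 at passage 4. The passage 2 difference was -2.61 ± 0.57 (adjusted p = 0.00733), and the 3 mice lay below all 3 of AE9a. In that comparison 1 of 5 receptors and 3.99% of all genes were called. The call was lost with the compared groups alone (adjusted p = 0.0660), without replicate 1 of AE9a (-2.44, adjusted p = 0.0508) and without replicate 3 of miR-126KO+AE9a (-2.19, adjusted p = 0.102). The average difference over the passages, -0.31 ± 0.29, did not pass (adjusted p = 0.676, 95% interval -0.90 to 0.27), and it was 0.45 without passage 2. The fall from passage 1 to 4, 9.78 to 8.68, did not pass either (-1.09 ± 0.57, adjusted p = 0.444).

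Cd36, the fatty acid and oxidised lipoprotein receptor, differed from AE9a in opposite directions in the miR-126 arms at passages 3 and 4 and on average. At passages 1 and 2 the 2 arms differed from AE9a in the same direction. The normal controls were widely spread, at 7.05, 6.29 and 8.78. AE9a read 6.18, 6.28 and 5.68 at passage 1, 7.92, 9.73 and 8.50 at passage 2, 6.97, 8.88 and 8.19 at passage 3, and 9.81, 7.72 and 7.87 at passage 4. The AE9a mice of passage 1 lay below all those of passages 2 to 4. AE9a+miR-126 read 7.78, 5.24 and 7.04 at passage 1, and then 4.61, 5.06 and 4.62, next 4.83, 4.99 and 5.12, and at last 4.96, 5.14 and 4.46. Its 9 later arrays lay below every AE9a array. They also lay below the median of all genes over all arrays, 5.54. As for Cd163, it is not known whether such arrays hold any Cd36 RNA. miR-126KO+AE9a read 8.03, 7.44 and 9.10 at passage 1 and 8.79, 7.44 and 5.67 at passage 2. It then read 11.59, 11.17 and 11.05 at passage 3 and 10.80, 11.31 and 11.01 at passage 4. Those last 6 arrays lay above all other arrays of the series.

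Against AE9a, Cd36 in AE9a+miR-126 differed by -3.95 ± 0.67 at passage 2 (adjusted p = 0.000479), -3.03 ± 0.67 at passage 3 (adjusted p = 0.000593) and -3.62 ± 0.67 at passage 4 (adjusted p = 0.000280). The passage 1 difference of 0.64 ± 0.67 did not pass (adjusted p = 0.989). The average was -2.49 ± 0.33 (adjusted p = 1.11e-06), and -2.31 to -2.63 as each array was left out. The change of the effect from passage 1 to 4 was -4.26 ± 0.95 (adjusted p = 0.00520). Both ends contributed to it: Cd36 rose by 2.42 ± 0.67 in AE9a (adjusted p = 0.0410) and fell by 1.84 ± 0.67 in AE9a+miR-126 (adjusted p = 0.0444). Within AE9a, 1 of 5 receptors and 2.94% of all genes were called between these passages. Both calls were fragile. In AE9a the rise was lost without any of replicates 1, 2 and 3 of passage 1 or replicates 1 and 3 of passage 4, with values of 1.75 to 2.72. The fall was lost with the compared groups alone (adjusted p = 0.120) and after cyclic loess (-1.45, adjusted p = 0.143). It was lost too without any of replicates 1 and 3 of passage 1 or replicates 1 to 3 of passage 4 (-1.98 to -1.29). With the low-spread arrays dropped, the 1 mouse left at passage 4 gave -2.23 (adjusted p = 0.136).

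In miR-126KO+AE9a, Cd36 was above AE9a by 3.25 ± 0.67 at passage 3 (adjusted p = 0.0109) and by 2.57 ± 0.67 at passage 4 (adjusted p = 0.0458). Each of these comparisons called 1 of 5 receptors, and 1.05% and 1.33% of all genes. At passage 1 the mice of the arms did not overlap, yet the difference of 2.14 ± 0.67 did not pass (adjusted p = 0.0967). There, 0 of 5 receptors and 2.09% of all genes were called by limma, with 2 receptors and 2551 genes at an unadjusted p under 0.05, and Cd36 passed when the compared groups were fitted alone (adjusted p = 0.0123). At passage 2 the difference was -1.42 ± 0.67 (adjusted p = 0.254). The average was 1.64 ± 0.33, a 3.11-fold difference (adjusted p = 0.00127), in a comparison that called 1 of 5 receptors and 8.17% of all genes. It was 2.66 without passage 2, and without passage 3 it was 1.10 and no longer passed (adjusted p = 0.138). The passage 3 call was lost without replicate 1 of AE9a (2.73, adjusted p = 0.117) or replicate 2 of miR-126KO+AE9a (3.30, adjusted p = 0.0532). The passage 4 call was lost without any of replicates 2 and 3 of AE9a or replicates 1 to 3 of miR-126KO+AE9a (2.20 to 2.69), with all probe sets tested (adjusted p = 0.0516) and with the replicate number as a block (adjusted p = 0.0619).

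Cd36 rose by 2.85 ± 0.67 from passage 1 to 4 within miR-126KO+AE9a (adjusted p = 0.00875), lost without replicate 2 of passage 1 (2.48, adjusted p = 0.0791). There, 1 of 5 receptors and 4.04% of all genes were called. Because Cd36 also rose in AE9a, the change of the knockout effect between these passages was only 0.43 ± 0.95 (adjusted p = 0.952). In that test 0 of 5 receptors and 0.428% of all genes were called by limma, with 0 receptors and 1721 genes at an unadjusted p under 0.05.

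**Figure D3:**
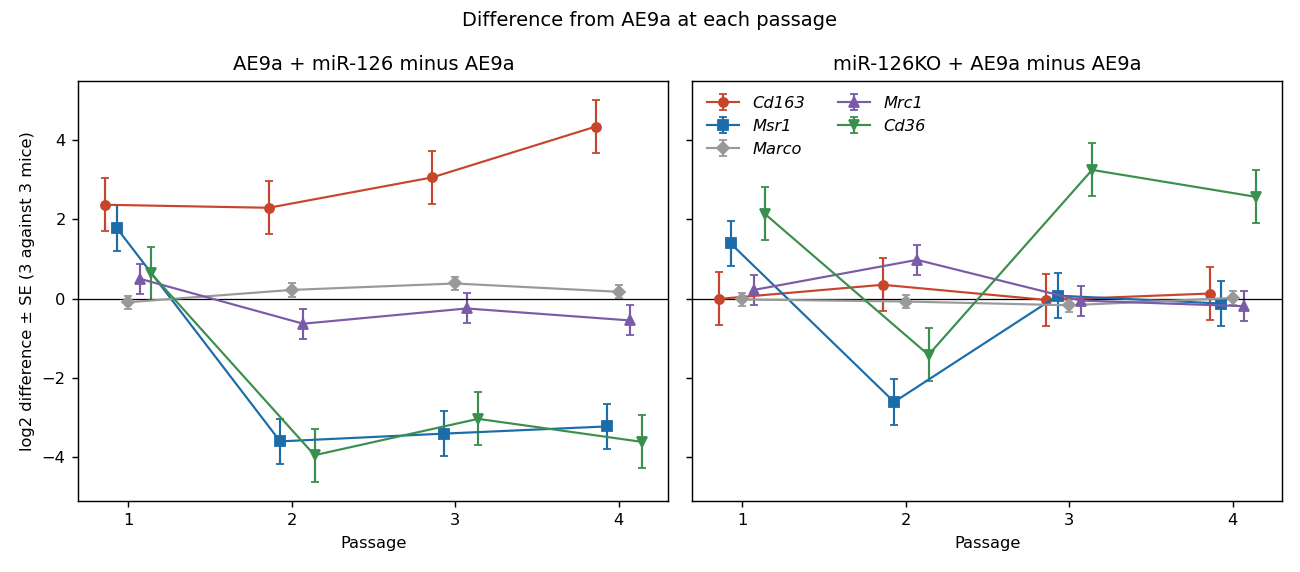
The log2 difference of each miR-126 arm from AE9a is plotted against passage, with AE9a+miR-126 on the left and miR-126KO+AE9a on the right; points are differences of 3 against 3 mice and bars are standard errors. With miR-126 added, Msr1 and Cd36 pass from above 0 at passage 1 to between -3.03 and -3.95, and Cd163 stays between 2.30 and 4.35; in the knockout Cd36 is at 3.25 and 2.57 at passages 3 and 4.

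Genes of lipid handling moved with Cd36 in part. Of the 14 measured, 1 was higher and 9 were lower in AE9a+miR-126 than in AE9a on average, with a median of -0.92, where 55.1% of all genes were called. Plin2, which coats lipid droplets, was lower by 1.38 ± 0.16, Npc1, which carries cholesterol out of lysosomes, by 1.70 ± 0.22, and Abcg1, a cholesterol exporter, by 1.69 ± 0.24. In miR-126KO+AE9a, 5 were higher and 0 lower, with a median of 0.04 against 0.01 over all genes, where 8.17% of all genes were called. The 3 with the smallest adjusted p were Lpl, the lipase of circulating triglyceride (1.95 ± 0.26), Lipa, the lysosomal acid lipase (0.94 ± 0.18), and Fabp4, a fatty acid carrier (2.09 ± 0.43).

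At passages 3 and 4 of miR-126KO+AE9a, Fabp4 read 9.36, 9.73 and 9.32 and then 8.65, 9.20 and 9.75, above all 12 AE9a arrays, which ran from 4.46 to 8.02. From passage 1 to 4 of the knockout arm, 2 of the 14 genes rose and 0 fell. These were Pparg (2.83 ± 0.66, adjusted p = 0.00877), the nuclear receptor of lipid uptake, and Apoe (2.58 ± 0.33, adjusted p = 1.00e-05), which carries cholesterol. Pparg read 7.45, 7.31 and 7.12 at passage 1 and 9.93, 10.19 and 10.25 at passage 4, with no overlap. Lpl had its highest group mean at passage 1 (10.38, 9.62 and 9.97), where Cd36 was lower than at passages 3 and 4 (8.03, 7.44 and 9.10). At passages 3 (10.05, 8.47 and 8.49) and 4 (8.01, 8.47 and 8.70) Lpl was still above the AE9a arrays of the same passage.

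**Figure D4:**
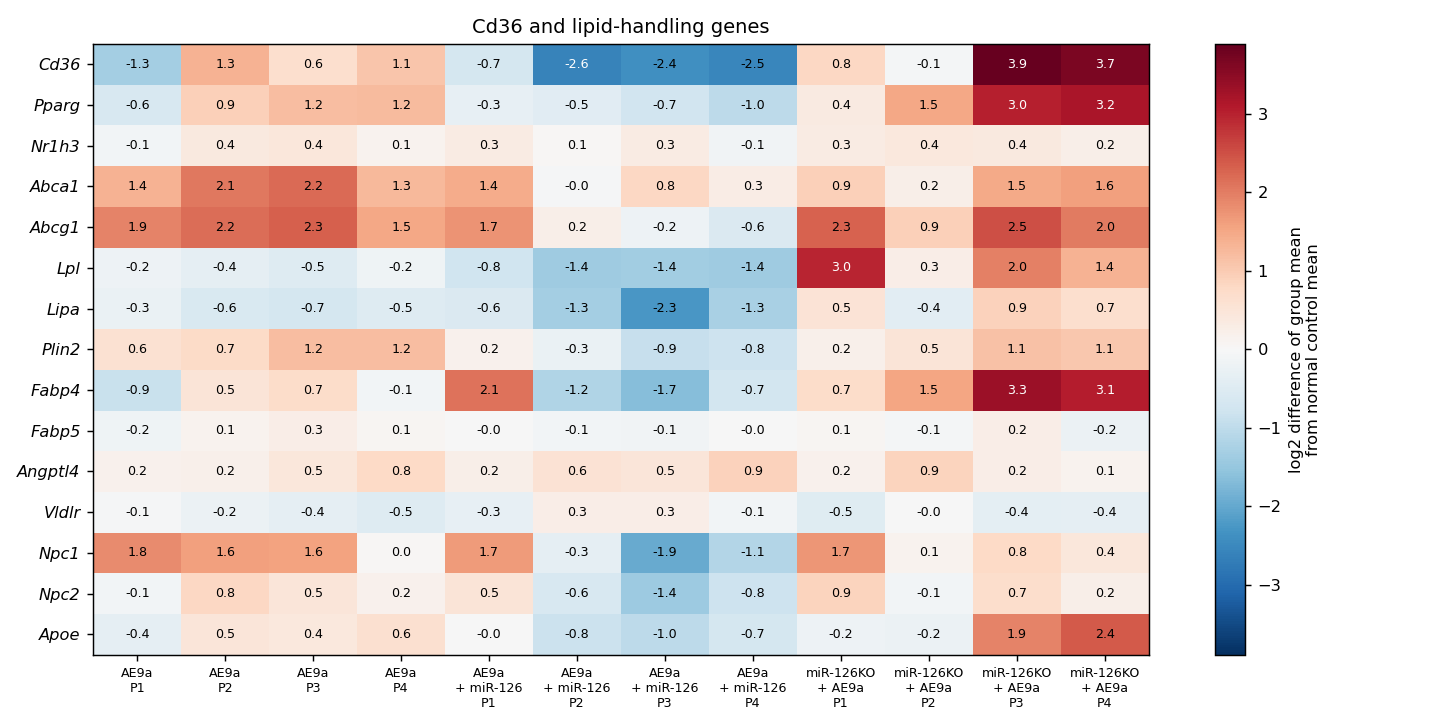
Colours and printed values give the log2 difference of each group mean (n = 3) from the normal control mean, for Cd36 and the 14 measured lipid handling genes in rows and the 12 leukaemia groups in columns. Cd36, Pparg, Fabp4 and Apoe are all red at P3 and P4 of miR-126KO+AE9a, while Nr1h3, Fabp5 and Vldlr stay near 0 there.

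Erythroid markers, made by another cell type that carries Cd36, moved in the knockout arm as well. Of 10 measured, 7 were higher and 0 lower than in AE9a on average, with a median of 0.95, where 8.17% of all genes were called. They were led by Car1 (3.16 ± 0.35), a red cell carbonic anhydrase. Their mean per array was 6.21 to 8.07 in miR-126KO+AE9a, 5.30 to 8.01 in AE9a, 4.97 to 5.74 in AE9a+miR-126 and 7.41 to 8.15 in the normal controls. Within AE9a, replicate 1 of passage 4 had both the highest erythroid mean (8.01) and the highest Cd36 (9.81). The AE9a mice of passage 1 had erythroid means of 5.30 to 5.37 and Cd36 of 5.68 to 6.28. Those of passage 3 had erythroid means of 5.34 to 5.93 and Cd36 of 6.97 to 8.88. In the normal controls Cd36 was 6.29 to 8.78. In the knockout arm the array with the least Cd36, replicate 3 of passage 2 at 5.67, had an erythroid mean of 7.94 and is the array of low spread named above (Ptprc 9.59). Platelet and megakaryocyte markers gave 1 of 9 higher and 1 lower. Neutrophil markers were lower, 12 of 12, with a median of -1.66. The part of these cell types in the Cd36 difference was not tested.

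Mrc1, the mannose receptor, and Marco, the class A receptor for bacteria and particles, passed only where the miR-126 arms were set against each other. Mrc1 read 6.08, 6.53 and 6.77 in the normal controls in rising order. The lowest, median and highest arrays were 5.85, 6.65 and 7.51 in AE9a, 5.40, 6.65 and 7.14 in AE9a+miR-126, and 6.44, 6.79 and 8.17 in miR-126KO+AE9a. Taken over all passages, the arms overlapped. At passage 1 the AE9a+miR-126 mice (6.73 to 7.14) lay above the AE9a mice (5.85 to 6.68). That difference of 0.51 ± 0.38 did not pass (adjusted p = 0.989). Mrc1 passed in none of the comparisons with normal controls or AE9a. The nearest was passage 2 of miR-126KO+AE9a, with 7.07, 8.17 and 7.73, which did not overlap AE9a yet did not pass (0.98 ± 0.38, adjusted p = 0.147). Its average difference from AE9a was -0.23 ± 0.19 in AE9a+miR-126 (95% interval -0.62 to 0.16) and 0.24 ± 0.19 in miR-126KO+AE9a (95% interval -0.15 to 0.63).

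Marco lay between 4.91 and 5.93 in all 39 arrays, with medians of 5.28 in AE9a, 5.42 in AE9a+miR-126 and 5.21 in miR-126KO+AE9a. Those medians are below the median of all genes. Its average difference from AE9a was 0.17 ± 0.08 in AE9a+miR-126 (adjusted p = 0.0778, 95% interval 0.00 to 0.34) and -0.06 ± 0.08 in miR-126KO+AE9a (95% interval -0.23 to 0.11). After cyclic loess the first of these was -0.0047.

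Set directly against each other, AE9a+miR-126 and miR-126KO+AE9a differed in all 5 receptors on average, in a comparison that called 49.7% of all genes. Cd36 was lower with miR-126 added by 4.13 ± 0.33, a 17.5-fold difference and the fifth in size among all genes (adjusted p = 1.45e-10). Cd163 was higher by 2.91 ± 0.33 (adjusted p = 8.19e-08) and Msr1 was 3.48-fold lower (adjusted p = 1.44e-05). Marco was higher by 0.23 ± 0.08 (adjusted p = 0.0226) and Mrc1 lower by 0.47 ± 0.19 (adjusted p = 0.0396). The last pair of calls was lost after cyclic loess (0.07 and -0.29) and without passage 2 (0.21 and -0.09) or passage 3 (0.13 and -0.56). Marco's was also lost with array spread in the model (0.14), when the low-spread arrays were dropped (0.08, over passages 1, 2 and 4) and without replicate 1 of passage 4 of AE9a+miR-126 (0.20). Mrc1's was lost without any 1 of 10 of the 24 arrays, namely replicates 2 and 3 of passage 1, replicate 3 of passage 2, replicate 1 of passage 3 and replicate 3 of passage 4 of AE9a+miR-126, and replicate 2 of passage 1, replicates 2 and 3 of passage 2, replicate 1 of passage 3 and replicate 3 of passage 4 of miR-126KO+AE9a (-0.46 to -0.36).

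Other scavenger receptors did not share 1 direction. Of 20 measured, 4 were higher and 8 lower in AE9a+miR-126 than in AE9a on average, with a median of -0.02. That is 12 of 20 called, near the 55.1% of all genes, so the count is no result about these receptors. In miR-126KO+AE9a 0 were higher and 2 lower, where 8.17% of all genes were called. Cxcl16, a chemokine that also acts as a receptor for oxidised lipoprotein, was high early and fell later. At passage 1 it was above the normal controls by 3.24 ± 0.48 in AE9a, 4.42 ± 0.48 in AE9a+miR-126 and 4.28 ± 0.48 in miR-126KO+AE9a, and from passage 1 to 4 it fell by 4.93 ± 0.48 in AE9a+miR-126 and by 3.07 ± 0.48 in miR-126KO+AE9a. Olr1, the lectin-like receptor for oxidised lipoprotein, fell by 5.14 ± 0.70 in AE9a+miR-126 between these passages, and was below AE9a by 1.88 ± 0.35 on average in the knockout arm. Ly75, an endocytic receptor of the mannose receptor family, was below the normal controls at passage 1 in all 3 arms (-1.58 ± 0.49, -2.18 ± 0.49 and -2.79 ± 0.49, in the same order).

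The order of the 13 group means shows where these receptors separate. For Cd163 the 4 AE9a+miR-126 groups stood first, from 9.13 at passage 4 to 7.29 at passage 1, followed by a gap of 1.87 to miR-126KO+AE9a at passage 2 (5.43), the only 1 of 12 gaps between neighbours beyond their pooled SD. For Msr1 the lowest 3 groups were AE9a+miR-126 at passages 2 (6.38), 3 (6.13) and 4 (5.58), and 10 of 12 gaps lay within the pooled SD. The exceptions were those between AE9a at passage 1 and the normal controls (0.91) and between miR-126KO+AE9a and AE9a+miR-126 at passage 2 (1.00). Cd36 fell into 3 tiers. miR-126KO+AE9a at passages 3 (11.27) and 4 (11.04) stood 2.32 above AE9a at passage 2 (8.72), and AE9a at passage 1 (6.05) stood 1.07 above AE9a+miR-126 at passage 3 (4.98). No mice overlapped across either gap, and the other 10 gaps lay within the pooled SD. Marco had 0 of 12 gaps beyond its pooled SD and Mrc1 had 1, between miR-126KO+AE9a at passage 2 (7.66) and AE9a at passage 4 (6.94).

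The genes whose 13 group means followed each receptor most closely are given as a description, since the groups share arms and controls. They were Dscam (Pearson r = 0.978), Klhl41 (0.975) and Dmrtb1 (0.968) for Cd163. Dscam, a cell adhesion molecule of neurons, read 5.58, 8.15 and 7.24 in the passage 1 mice of AE9a+miR-126, so its low mouse was the same as that of Cd163. For Msr1 they were Mfsd7a (0.980), Ube2f (0.972) and Zc3h12c (0.971), and for Cd36 Tmem51 (0.969), Itgb5 (0.968), an integrin chain, and Tppp3 (0.962). Mrc1 was followed less closely, by Cadm1 (0.907), Ptprm (0.875) and the complement gene C1qa (0.826), and Marco by H2ab2 (0.976), Ppil6 (0.971) and Cd164l2 (0.969). Among the receptors themselves, Cd163 ran against Cd36 (r = -0.734) and Msr1 (r = -0.667), while Msr1 and Cd36 ran together (r = 0.681), over the same 13 means.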

How the data were processed

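RNA of sorted donor cells from 39 mice was measured on Affymetrix Mouse Gene 2.0 ST arrays, 1 array per mouse. The table deposited by the authors holds log2 values of 27037 probe sets, made with RMA and Partek 6.0 per the submitters' processing notes. RMA is meant to bring arrays to a common distribution and can narrow differences of dim genes, but the SDs of the deposited columns still ran from 1.43 to 2.08. Background settings, batches and the genome build were not given in the sources used here. Arm, passage and replicate came from the titles.

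Probe sets with 1 symbol in the platform annotation (23521, against 1814 with several and 1702 with none) were kept, with the highest mean probe set per gene, for 22180 genes in all. A linear model of 13 group means was fitted to all 39 arrays in limma 3.58.1 (R 4.3.3, 26 residual degrees of freedom), tested on simulated data first. P-values were adjusted by Benjamini-Hochberg across the 22180 genes, separately in each of 19 comparisons, and a gene was called under 0.05. Averages weight the 4 passages equally. Levels of different genes were not compared. Arrays give no counts, so their number limits the precision. Pairwise r within groups was 0.885 to 0.992.

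The receptors and the gene lists (149 of 161 genes measured) were chosen with earlier results of these data known. Named were the 5 receptors in every comparison, up to 3 genes per list and comparison with the smallest adjusted p among those called, and the 3 genes per receptor with the highest r, skipping pseudogenes, predicted genes, small RNAs and odorant or vomeronasal receptors. Ptprc, Timd4, Vsig4, the lipid handling genes near 0 named beside the colour map, and some per-array values of named genes were added after their values were seen. Upstream regions and the microRNA sequence are from RefSeq (GRCm38.p6) and figures were drawn with matplotlib 3.10.9. The alternatives were the replicate number as a block, only the compared groups, a robust prior with a trend, no dim genes, cyclic loess, array spread as a covariate, no arrays with an SD under 1.8, all probe sets, the mean of probe sets, and leaving out each passage or array.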

Additional observations from a re-analysis of the deposited data

Results flagged for a closer look

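Msr1 and Cd36 are listed here because the effect of added miR-126 in AE9a cells differed between passages 1 and 4 by a test of the difference itself. For Msr1 the effect was 1.79 at passage 1 and -3.23 at passage 4, a change of -5.02 ± 0.81 (adjusted p = 0.000231). For Cd36 it was 0.64 and -3.62, a change of -4.26 ± 0.95 (adjusted p = 0.00520). Both kept an adjusted p under 0.05 in every alternative that left at least 2 mice in each group, and the changes with 1 array left out ran from -5.49 to -4.38 and from -4.98 to -3.59. Dropping the low-spread arrays left 1 mouse of AE9a+miR-126 at passage 4, which gave -6.25 and -4.65. The spread of array values also narrowed in AE9a+miR-126 after passage 1. With spread as a covariate the changes were -5.69 and -4.29.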

How the results depend on the processing

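Of the 5 receptors in 19 comparisons, no called difference changed sign in any alternative. The averages of AE9a+miR-126 against AE9a for Cd163, Msr1 and Cd36, and the passage 1 rises of Msr1 in AE9a+miR-126 and miR-126KO+AE9a over normal controls, kept direction and call in every alternative run on them. Dropping the low-spread arrays is a weak check of those averages, since it leaves 1 mouse of AE9a+miR-126 at passages 2 and 4 and none at passage 3.

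Among the averages against AE9a and the comparisons with normal controls, the following calls changed beside those from leaving out 1 array. The calls of Marco and Mrc1 between the miR-126 arms changed as given with them above. Cd163 in AE9a+miR-126 against normal controls (2.28) lost its call with the compared groups alone, Cd36 in the knockout average without passage 3 (1.10), and Marco gained one in the AE9a+miR-126 average without passage 1 (0.26). Without passage 2, the knockout averages turned sign for Msr1 (0.45) and Mrc1 (-0.0056), neither called.

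Other sign changes were of differences that were never called. With cyclic loess they were Mrc1 in AE9a against normal controls (0.09) and in AE9a+miR-126 at passage 3 (0.15). For Marco they were AE9a+miR-126 at passage 4 (-0.07) and on average (-0.0047), the knockout at passages 1 (0.02) and 4 (-0.05), passage 4 against 1 in AE9a (0.05) and the knockout (-0.02), and the changes of the effects of added miR-126 (-0.03) and knockout (-0.08). With spread as a covariate they were Cd163 in AE9a against normal controls (0.02) and in the knockout from passage 1 to 4 (0.08), and Marco in the knockout at passages 1 (0.0052) and 4 (-0.02), in AE9a from passage 1 to 4 (0.03) and in the change of the knockout effect (-0.02). Without the arrays of low spread it was Marco in the knockout at passage 2 (0.02).

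Leaving out 1 array at a time changed the sign or call of these, beside the calls named in the report, with their lowest and highest values. Against normal controls, Cd163 ran from -0.20 to 0.05 in AE9a, 1.37 to 3.49 in AE9a+miR-126 and -0.30 to 0.02 in the knockout; Mrc1 from -0.28 to 0.17 in AE9a and -0.06 to 0.29 in the knockout; in AE9a+miR-126, Marco ran from -0.06 to 0.12 and Cd36 from -1.23 to 0.04. AE9a+miR-126 against AE9a gave Mrc1 at passage 3 (-0.75 to 0.0099), Marco at passage 3 (0.20 to 0.53; called without replicate 1 of AE9a or replicate 2 of AE9a+miR-126) and Marco on average (0.13 to 0.21; called without replicate 1 of AE9a at passage 3, replicate 2 of AE9a+miR-126 at passage 3, or replicate 3 of either arm at passage 4). The knockout against AE9a gave Cd163 at passages 1 (-0.20 to 0.11) and 3 (-0.18 to 0.14), Marco at passages 1 (-0.12 to 0.04), 2 (-0.15 to 0.02) and 4 (-0.08 to 0.14), Mrc1 at passages 1 (-0.04 to 0.37), 3 (-0.55 to 0.21) and 4 (-0.44 to 0.10), and Msr1 at passages 3 (-0.75 to 0.52) and 4 (-0.36 to 0.07). Passage 4 against 1 gave Msr1 (-0.21 to 0.90) and Marco (-0.14 to 0.08) in AE9a, and Cd163 (-0.13 to 0.19), Marco (-0.03 to 0.13) and Mrc1 (-0.10 to 0.29) in the knockout. The change of the knockout effect gave Marco (-0.06 to 0.16).

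Between arms at the same passage, mice with the same replicate number did not deviate together more than others by the median. That median r was -0.0552 over 36 pairs, and 0.0314 over 72 pairs of different numbers. Single pairs ran from -0.315 to 0.635 with the same number and from -0.56 to 0.395 with different numbers. Pairing by number across the passages of an arm was not tested. With the replicate block 3 calls were lost and 0 gained, all of Cd36: the knockout at passage 4 (2.57, adjusted p = 0.0619), AE9a from passage 1 to 4 (2.42, adjusted p = 0.0526) and AE9a+miR-126 from passage 1 to 4 (-1.84, adjusted p = 0.0526). The number of genes called in the AE9a+miR-126 average was 12211, and it was 7872 after cyclic loess, 2813 with spread as a covariate, 982 without the arrays of low spread and 4158 without passage 3; in the knockout average it was 1812, against 2934 with the compared groups alone, 2961 with spread as a covariate and 1138 without passage 3. The cause was not tested.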

Other observations

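Neutrophil markers fell in AE9a+miR-126. Of 12 neutrophil markers, 11 fell and 0 rose from passage 1 to 4, with a median of -4.28, where 24.3% of all genes were called. Among them were Retnlg (-6.57 ± 0.62), Ngp (-3.66 ± 0.30), a granule protein, and S100a8 (-4.62 ± 0.51), a calcium-binding protein of granulocytes. At passage 1 against normal controls, erythroid markers were lower in 9 of 10 in AE9a, 8 of 10 in AE9a+miR-126 and 3 of 10 in miR-126KO+AE9a, where 8.87%, 9.73% and 10.8% of all genes were called. Complement genes of macrophages rose from passage 1 to 4 in AE9a, C1qb by 3.93 ± 0.67 and C1qc by 2.67 ± 0.52.

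Cd14, the receptor for bacterial lipopolysaccharide, was above the normal controls at passage 1 in all 3 arms, by 3.28 ± 0.54 in AE9a, 3.40 ± 0.54 in AE9a+miR-126 and 3.18 ± 0.54 in miR-126KO+AE9a, while Vcam1, an adhesion molecule of marrow macrophages, was below them by 1.43 ± 0.28, 1.53 ± 0.28 and 2.18 ± 0.28. The 3 comparisons share their controls.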
